A study of Caenorhabditis elegans with 2 samples.

Results

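A set of 10 genes of Wnt signalling in *Caenorhabditis elegans* was examined for binding by REF-2, a Zic-family protein that binds DNA through zinc fingers. They were taken by name (mom-1, mom-2, mom-5, mig-5, vang-1, wrm-1, sys-1, bar-1, pop-1 and lit-1) and make up 10 of the 19973 nuclear protein-coding genes of the WBcel235 assembly, called ce11 in genome browsers. The names were proposed with earlier results of these data known. Binding was measured by ChIP-seq, the sequencing of DNA precipitated with a chromatin protein, in whole late embryos collected 3 hours after egg bleaching. All animals were hermaphrodites of strain OP520, with the genotype unc-119(tm4063) III; wgIs520. The transgene wgIs520 expresses REF-2 with a GFP-FLAG tag at its C terminus. An antibody against GFP was used for the precipitation, although the antibody field of the labels reads ref-2, and chromatin was sheared by sonication. The samples form 1 group of 2 biological replicates, and the labels do not say whether these came from separate cultures. No untagged or other control sample was analysed here, no cell type was separated, and nothing in the peak lists says in which cells a site was bound. Each peak has a summit, the position of its highest signal, and a signal per peak, which is the authors' own value. The normalization of that signal and the read depth of the libraries are unknown here.

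Wnt ligands are lipid-modified and secreted, bind Frizzled receptors on the receiving cell and act through Dishevelled proteins. In the canonical branch a stabilized beta-catenin enters the nucleus and works with a TCF factor at target genes. In the worm embryo a divergent branch, the Wnt/beta-catenin asymmetry pathway, gives sister cells different nuclear levels of the TCF factor POP-1 and of its coactivator SYS-1, with WRM-1 and the kinase LIT-1 driving POP-1 out of the nucleus. REF-2 is known for its part in fate decisions of the epidermis and of neurons.

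Sequence around 6 of the summits is printed here because these summits show the kinds of place in which peaks at the Wnt genes lay. Each shows the summit and 100 bases on either side, on the plus strand of WBcel235 from RefSeq. The strongest peak inside any of the 10 genes lay in the last intron of mom-1 (chrX:6296434-6296634), and capitals mark the end of the coding exon before that intron.
mom-1 intron: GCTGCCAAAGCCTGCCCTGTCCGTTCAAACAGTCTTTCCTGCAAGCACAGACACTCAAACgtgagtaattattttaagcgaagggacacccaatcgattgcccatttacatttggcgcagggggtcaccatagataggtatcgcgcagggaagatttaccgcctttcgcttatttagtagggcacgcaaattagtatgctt
The peak upstream of mom-1 (chrX:6292269-6292469) lay beside a tRNA gene on the minus strand, and capitals mark the reverse complement of a match to the B box of tRNA genes, an internal promoter element.
mom-1 upstream: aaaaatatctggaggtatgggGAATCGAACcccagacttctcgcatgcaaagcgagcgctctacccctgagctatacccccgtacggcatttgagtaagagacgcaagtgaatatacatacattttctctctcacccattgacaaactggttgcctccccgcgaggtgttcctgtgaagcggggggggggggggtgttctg
The vang-1 summit (chrX:2885455-2885655) lay inside a pair of noncoding RNA genes, and capitals mark the bases that both genes cover.
vang-1 upstream: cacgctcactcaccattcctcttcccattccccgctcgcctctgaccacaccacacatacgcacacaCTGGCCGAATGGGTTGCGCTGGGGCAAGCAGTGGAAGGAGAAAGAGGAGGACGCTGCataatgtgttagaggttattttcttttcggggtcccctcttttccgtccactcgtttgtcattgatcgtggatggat
The mig-5 summit (chrII:8185093-8185293) lay between the diverging genes mig-5 and cct-1, and capitals mark the 21 central bases.
mig-5 upstream: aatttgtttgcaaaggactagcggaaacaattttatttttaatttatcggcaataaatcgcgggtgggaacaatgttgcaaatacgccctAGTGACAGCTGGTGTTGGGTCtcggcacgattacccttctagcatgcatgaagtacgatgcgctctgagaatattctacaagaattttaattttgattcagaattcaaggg
The wrm-1 window (chrIII:5722091-5722291) was the only one of the 15 summit windows described here with a Zic-type core, in capitals, which reads CAGCAGG on the minus strand.
wrm-1 upstream: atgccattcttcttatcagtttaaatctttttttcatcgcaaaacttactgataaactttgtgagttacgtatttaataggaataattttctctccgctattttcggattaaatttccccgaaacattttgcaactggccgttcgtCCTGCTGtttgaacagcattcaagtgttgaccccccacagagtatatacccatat
The lit-1 window (chrIII:13713905-13714105) holds the first codon of a shorter lit-1 transcript, in capitals.
lit-1 internal: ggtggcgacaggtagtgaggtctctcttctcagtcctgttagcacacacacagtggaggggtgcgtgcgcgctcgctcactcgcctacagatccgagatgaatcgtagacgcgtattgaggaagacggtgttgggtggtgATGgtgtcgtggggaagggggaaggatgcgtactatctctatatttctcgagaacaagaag

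Peaks were read from 4 deposited lists. The optimal list, which the authors thresholded on reproducibility between replicates, held 2129 peaks with a median signal of 145.7. The relaxed lists of replicate 1, of replicate 2 and of the pooled replicates held 30000 peaks each and include background. Ranked by signal, the first 2129 pooled peaks were the optimal ones, without exception, so the lowest optimal signal of 105.5 acts as a threshold on pooled signal.

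Of the 10 genes, 7 had at least 1 optimal summit in the locus window, from 5000 bp upstream of the gene's 5' end to 1000 bp past its 3' end. Such a summit was found for 17.3% of all protein-coding genes. The 7 genes were mom-1, mig-5, vang-1, wrm-1, sys-1, pop-1 and lit-1, with 15 summits among them. The ligand gene mom-2, the receptor gene mom-5 and the beta-catenin gene bar-1 had none. In the promoter window, reaching 1000 bp before and 200 bp after the 5' end, an optimal summit was present for 5 genes (mom-1, mig-5, vang-1, wrm-1 and pop-1), and for 6.29% of all protein-coding genes. Inside the gene, an optimal summit was present for 3 genes (mom-1, pop-1 and lit-1), and for 3.06% of all. Longer genes have longer windows, and the median gene length was 4676.5 bp for the 10 genes and 2027 bp for all protein-coding genes.

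**Figure D1:**
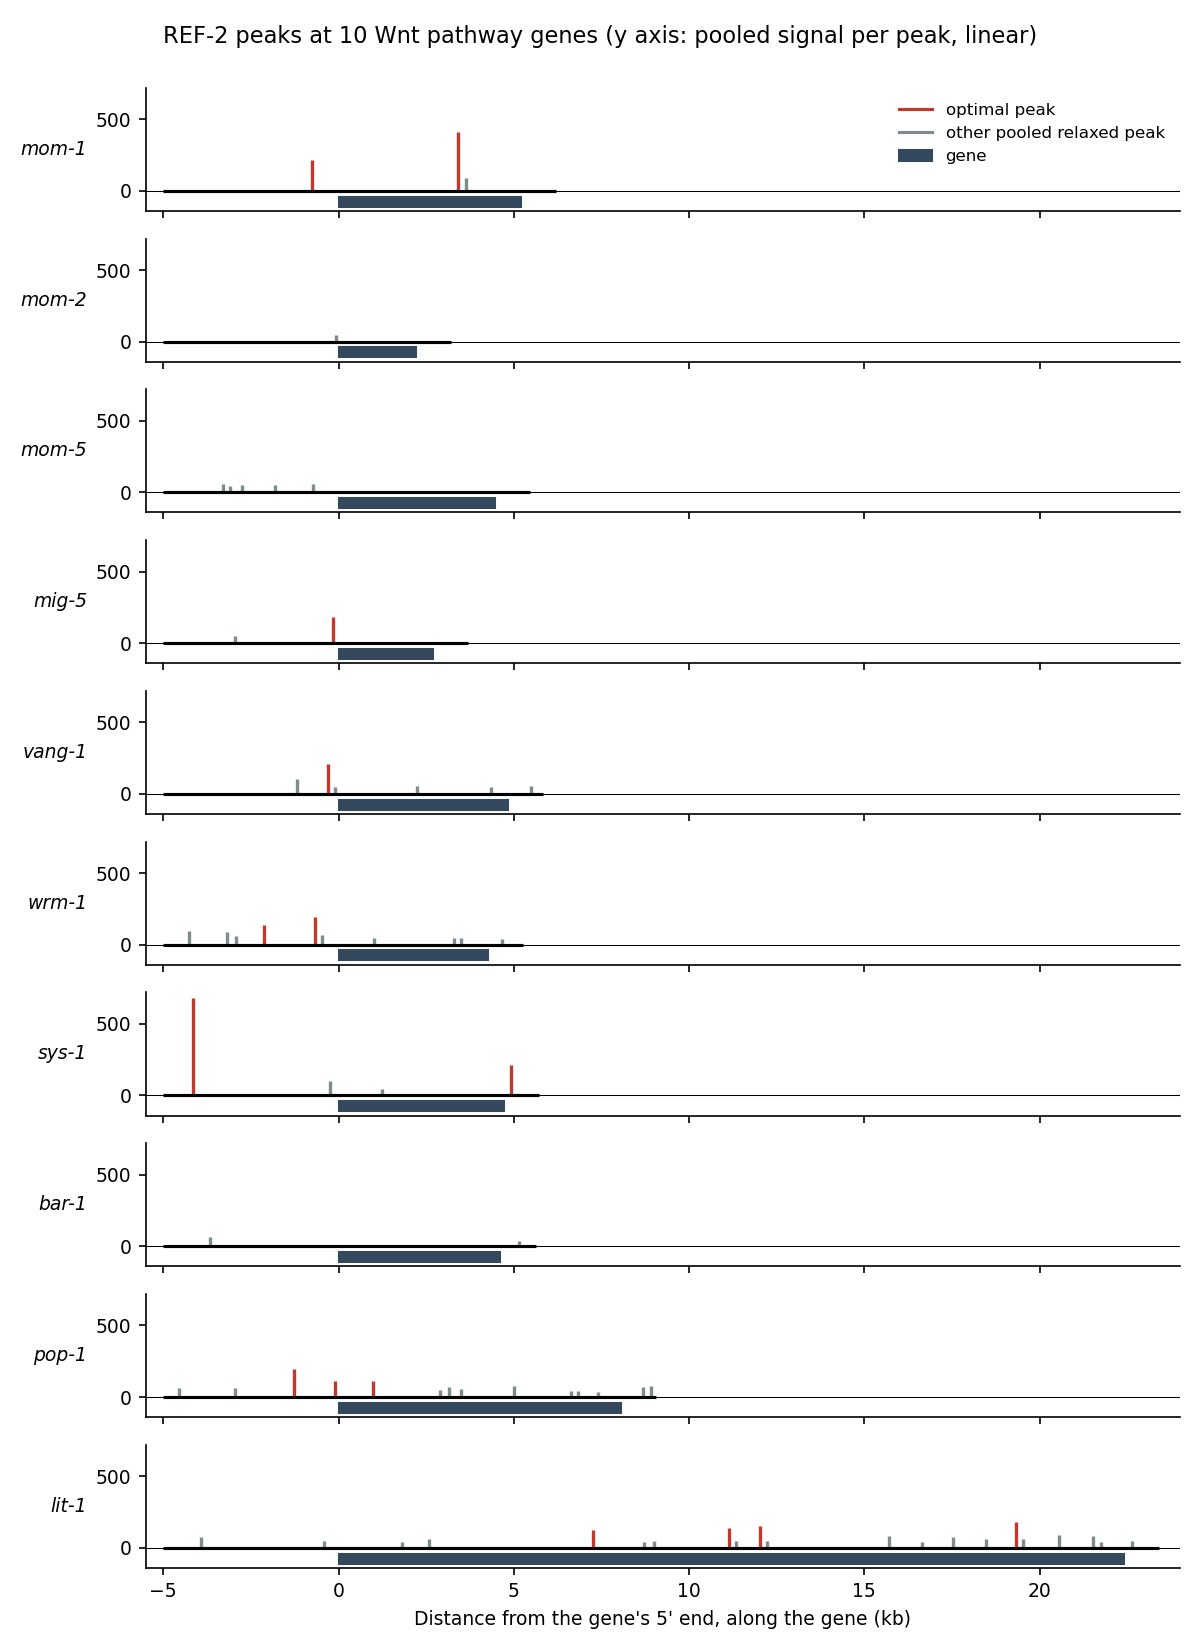
Summits of pooled peaks around each of the 10 Wnt pathway genes, with distance from the gene's 5' end in kb on the x axis and pooled signal on the y axis. Red lines are optimal peaks, grey lines are other pooled relaxed peaks, the thin line is the window searched and the bar is the gene; 7 genes have red lines, and mom-2, mom-5 and bar-1 have grey ones only.

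The 15 summits were placed by the models of these genes alone, and exons of neighbouring genes were not checked. By those models 8 lay upstream, 6 in introns and 1 downstream, and 0 lay in a coding exon or an untranslated region. The shares of all optimal summits in such places were not computed, so these counts are no result about the genes. Their pooled signal had a median of 185.7 and ran from 110.4 to 677.4, and 10 of the 15 were at or above the median of the optimal list. By rank in the pooled list, 5 of the 15 were among the 500 strongest, which by construction hold 500 of the 2129 optimal peaks. Over the windows of the 10 genes, 123.5 kb in all, there were 0.121 optimal summits per kb, against 0.0212 per kb over the genome. In the pooled relaxed list the windows held 68 summits, or 0.551 per kb, against 0.299 per kb over the genome. The summits were uneven among the genes, with 21 pooled relaxed summits at lit-1, 14 at pop-1 and 10 at wrm-1, but 1 at mom-2 and 2 each at mig-5 and bar-1.

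mom-1 encodes a Porcupine-type acyltransferase, which attaches the lipid that Wnt ligands need for secretion. The gene spans 6293112 to 6298305 on the plus strand of chromosome X (WBGene00003394) and had 2 optimal summits. The stronger lay at X 6296534 in intron 7 of 7, 1771 bp before the 3' end of the gene. Its signal was 176.8 in replicate 1 and 228.0 in replicate 2, with a pooled signal of 410.9. It ranked 87 in replicate 1 and 54 in replicate 2, with a pooled rank of 58, so it stood among the strongest peaks of the genome in either replicate. No noncoding gene lay within 4185 bp of it. The nearest 5' end of a protein-coding gene was that of cest-16, 3408 bp away, with that of mom-1 itself 3422 bp away. The peak was short, 189 bp against a median of 440 bp over the optimal list, and a second pooled summit of signal 90.6 lay 202 bp further into the intron.

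The other mom-1 summit lay 743 bp upstream of the gene, at X 6292369, with a signal of 84.8 in replicate 1 and 133.4 in replicate 2, with a pooled signal of 212.3. It ranked 705 in replicate 1 and 301 in replicate 2. This summit was 20 bp from an alanine tRNA gene (WBGene00023133, X 6292278 to 6292349), and the B box of that tRNA was centred 75 bp from it. It was also nearer to the 5' end of lev-9 (637 bp), which encodes a secreted protein that clusters acetylcholine receptors in muscle, than to that of mom-1. Transfer RNA genes have near-identical copies, and the sources used here do not say how reads from copies were placed. Binding at mom-1, at lev-9 and at the tRNA gene cannot be told apart by the position of this summit.

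mom-2 encodes the Wnt ligand that polarizes early blastomeres, and it had no optimal summit (WBGene00003395, V 8355988 to 8358185, plus strand). Its 1 pooled relaxed summit lay 61 bp upstream with a signal of 49.2, at rank 17684 of 30000. In replicate 1 the nearest summit was 11 bp inside the gene with a signal of 24.2, and in replicate 2 it was 63 bp upstream with a signal of 24.0. Peaks of this size were therefore placed at the start of mom-2 in each list, at signals below the median of each list.

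mom-5 encodes a Frizzled receptor for MOM-2, and it also had no optimal summit (WBGene00003397, I 9965574 to 9970037, plus strand). Its 5 pooled relaxed summits all lay upstream, from 720 to 3303 bp, and their signals ran from 42.8 to 61.5. The strongest, at 720 bp, ranked 9949 in the pooled list. Replicate 2 placed a summit of signal 49.9 within 5 bp of it (rank 3567), while the nearest summit of replicate 1, at 876 bp upstream, had a signal of 21.6. The value was thus higher in replicate 2, though the scaling between the lists is unknown here. The 3 summits furthest upstream lay in the promoter window of algn-10, and 1 of them within 200 bp of the noncoding RNA gene T24D1.6.

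mig-5 encodes a Dishevelled protein, which relays the signal from Frizzled in the cytoplasm (WBGene00003241, II 8182323 to 8185023, minus strand). Its optimal summit, at II 8185193, lay 170 bp upstream of the gene in the gap between mig-5 and cct-1, which encodes a subunit of the TRiC/CCT chaperonin, and it was in the promoter windows of both. Its signal was 101.0 in replicate 1 (rank 467) and 89.6 in replicate 2 (rank 807), with a pooled signal of 185.7 (rank 632). The summit was closer to mig-5 than to any other 5' end, and the nearest noncoding gene was 7849 bp away. It was 1 of only 2 summits among the 15 with a higher signal in replicate 1.

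vang-1 encodes the worm Van Gogh protein, a membrane protein of planar cell polarity (WBGene00015171, X 2885858 to 2890681, plus strand). Its optimal summit, at X 2885555, lay 303 bp upstream, with a signal of 94.1 in replicate 1 (rank 549) and 108.5 in replicate 2 (rank 500), with a pooled signal of 206.8 (rank 491). The replicates placed this peak close together in rank. The summit lay inside the noncoding RNA genes F53B3.10 and F53B3.12 and within 200 bp of F53B3.11. A further vang-1 peak, 1195 bp upstream, fell just short of the optimal list with a pooled signal of 102.7 (rank 2282). It was more than 200 bp from any noncoding gene, and its nearest summits had signals of 40.2 in replicate 1 and 62.1 in replicate 2.

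The worm has separate beta-catenins for separate tasks, WRM-1 and SYS-1 in the asymmetry pathway and BAR-1 in the canonical branch. wrm-1 (WBGene00006943, III 5722850 to 5727115, plus strand) had 2, both upstream. The stronger was 659 bp upstream, at III 5722191, with a pooled signal of 190.8 (rank 593) and 110.1 in replicate 2 (rank 485). In replicate 1 the peak was split into a summit of 63.8 at 101 bp to one side, which is nearer, and a summit of 89.4 on the other side (rank 618). This window held the Zic-type core printed above, centred 49 bp from the pooled summit, and no noncoding gene lay within 1630 bp. The weaker summit was 2134 bp upstream, with a signal of 64.9 in replicate 1 and 67.9 in replicate 2, with a pooled signal of 135.9 (rank 1244), and it lay 155 bp from the noncoding RNA gene B0336.16. For both summits wrm-1 had the nearest 5' end of any protein-coding gene.

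sys-1, which encodes the coactivator that binds POP-1 (WBGene00006379, I 9980063 to 9984794, minus strand), had 2 optimal summits in its window, and each lay in promoter windows of other genes only. The stronger, at I 9988938, lay 4144 bp upstream of sys-1 and ranked 10 of all pooled peaks with a signal of 677.4. Its signal was 308.1 in replicate 1 (rank 13) and 363.6 in replicate 2 (rank 9). It was 175 bp from the 5' end of the histone gene his-67 and also lay in the promoter windows of the histone gene his-68 and of alg-5, an Argonaute gene. Histone genes have near-identical copies, for which the placing of reads is likewise unknown here. The other summit, at I 9979876, lay 187 bp past the 3' end of sys-1 and 214 bp from the 5' end of eif-3.C, which encodes a subunit of a translation initiation factor. Its signal was 133.0 in replicate 1 (rank 224) and 84.8 in replicate 2 (rank 931), with a pooled signal of 214.3 (rank 448), so it was higher in replicate 1.

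The promoter window of sys-1 itself held a peak just outside the optimal list. It lay 250 bp upstream and had a pooled signal of 104.1 (rank 2213), under the lowest optimal signal of 105.5. Replicate 1 had a signal of 64.6 there (rank 1258) and replicate 2 a signal of 49.1 (rank 3736). The site was thus among the 2129 strongest peaks of replicate 1 and not among those of replicate 2. The weakest summits just inside the list among these genes were those of pop-1 at 110.4 and 113.3.

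bar-1 (WBGene00000238, X 7166005 to 7170625, minus strand) had no optimal summit. It had 2 pooled relaxed summits, and the stronger had a signal of 61.5 at rank 9983. It lay 3679 bp upstream, within 200 bp of the noncoding RNA genes F43E12.7 and F43E12.8. The nearest replicate summits had a signal of 21.5 in replicate 1 and 43.9 in replicate 2. The promoter window of bar-1 held no pooled summit. It held a replicate 2 summit of signal 25.7, at 391 bp upstream, and replicate 1 had a summit of 23.9 in a coding exon, 241 bp inside the gene.

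pop-1 encodes the only TCF/LEF factor of the worm, the nuclear end point of these branches (WBGene00004077, I 2822243 to 2830311, minus strand). It had 3 optimal summits spread over the first intron and the upstream region, and pop-1 had the nearest 5' end to each. The strongest lay 1261 bp upstream, at I 2831572, with a signal of 85.6 in replicate 1 (rank 687) and 117.4 in replicate 2 (rank 412), with a pooled signal of 197.0 (rank 557). It was inside the noncoding RNA genes W10C8.8 and W10C8.12. The promoter summit, 92 bp upstream at I 2830403, had signals of 48.6 in replicate 1 and 59.9 in replicate 2, with a pooled signal of 110.4, and it lay inside the noncoding RNA gene W10C8.14. The intronic summit, 987 bp into the gene in intron 1 of 3, had signals of 50.7 in replicate 1 and 62.6 in replicate 2, with a pooled signal of 113.3, and it was 1011 bp from the nearest noncoding gene. The promoter and intron peaks were near the lower edge of the optimal list, and they ranked 2521 and 2250 in replicate 1, below the 2129 strongest. A further 11 pooled relaxed summits lay along pop-1, with signals between 37.3 and 76.0.

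lit-1 encodes a Nemo-like kinase that phosphorylates POP-1 in a complex with WRM-1. It is the longest of the 10 genes (WBGene00003048, III 13701991 to 13724404, plus strand, 22414 bp), with 7 annotated transcripts that start at several places along it. No optimal summit lay in the promoter window of the gene's 5' end, where the pooled relaxed list had a summit of 49.1 at 417 bp upstream (rank 17755). All 4 optimal summits of lit-1 were intronic with respect to its longest transcript, W06F12.1d.2. The one at III 13714005 lay 40 bp upstream of the start of the transcript W06F12.1a.1, at 13714045, with signals of 64.6 in replicate 1 and 82.2 in replicate 2, with a pooled signal of 154.4 (rank 917). The one at III 13713120 lay 925 bp upstream of the same start, with signals of 66.4 in replicate 1 and 74.7 in replicate 2, with a pooled signal of 138.5. Both therefore fell in a promoter window of this shorter transcript, inside intron 2 of the longest one.

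When the promoter window was placed at every annotated transcript start, 6 of the 10 genes had an optimal summit in one, lit-1 being the addition, against 7% of all protein-coding genes. The first transcript base of W06F12.1a.1 is also its first codon, so its annotation holds no sequence ahead of the coding region. The strongest lit-1 summit, at III 13721317 in intron 8 of 10, had signals of 85.3 in replicate 1 and 94.8 in replicate 2, with a pooled signal of 176.6 (rank 706). It lay 1921 bp past the nearest lit-1 transcript start, that of W06F12.1c.1, and 129 bp from the noncoding RNA gene W06F12.7. The fourth summit, at III 13709245, was 4800 bp upstream of W06F12.1a.1 and had signals of 54.1 in replicate 1 and 71.2 in replicate 2, with a pooled signal of 122.9. The nearest noncoding gene to the other 3 was 1032 to 2823 bp away.

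**Figure D2:**
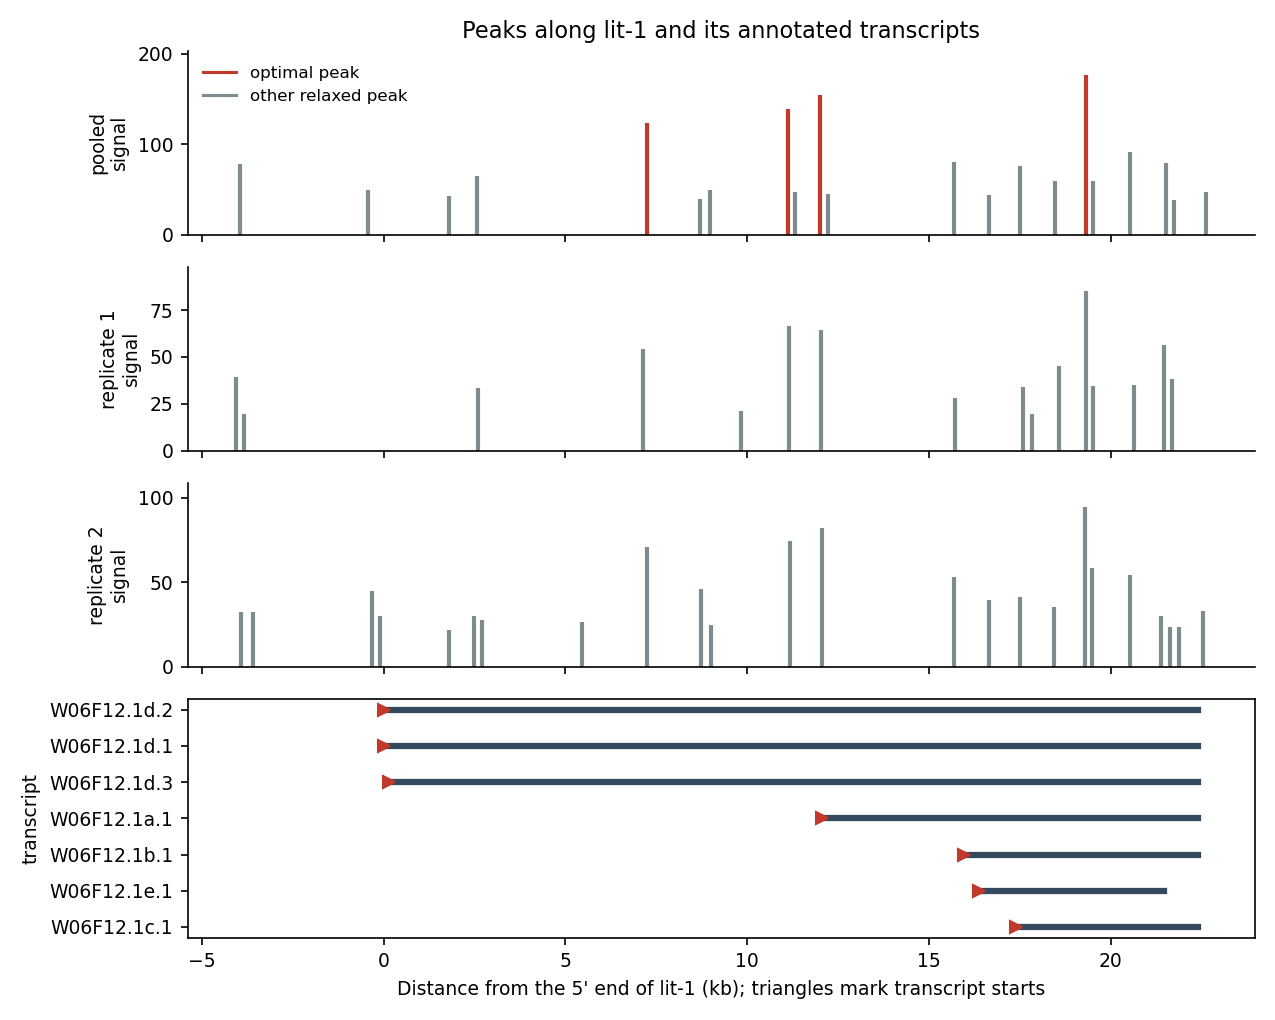
Signal of relaxed peaks along lit-1 in the pooled list, replicate 1 and replicate 2, above its 7 annotated transcripts, with distance from the gene's 5' end in kb on the x axis. Red lines, drawn in the pooled panel only, are the 4 optimal peaks, and every replicate peak is grey whether or not it matches one. The optimal peaks at 11129 and 12014 bp lie just before the start of W06F12.1a.1 at 12054 bp. The promoter window of the gene's own 5' end has a pooled peak of 49.1 only.

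The replicates were set side by side at the 15 summits. Each of the 15 had a summit of each replicate within 200 bp, as did 99.2% of all optimal summits, a match that the choice of the optimal list nearly fixes. Of the 15, 13 matched peaks among the 2129 strongest of both replicates, against 67.8% of all optimal summits, and the 2 that did not were the promoter and intron summits of pop-1. Every one of the 7 genes had at least 1 such summit. The sys-1 upstream and mom-1 intron summits came first and second in both replicates, and the pop-1 intron and promoter summits came last in both. Between these ends the order was not shared: the sys-1 downstream summit was number 3 of 15 in replicate 1 and number 9 in replicate 2, and the mom-1 upstream summit was number 8 in replicate 1 and number 3 in replicate 2. The pooled order of the mom-1 upstream, mig-5, vang-1, wrm-1 upstream, sys-1 downstream and pop-1 upstream summits, 185.7 to 214.3, was therefore not resolved by the replicates.

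**Figure D3:**
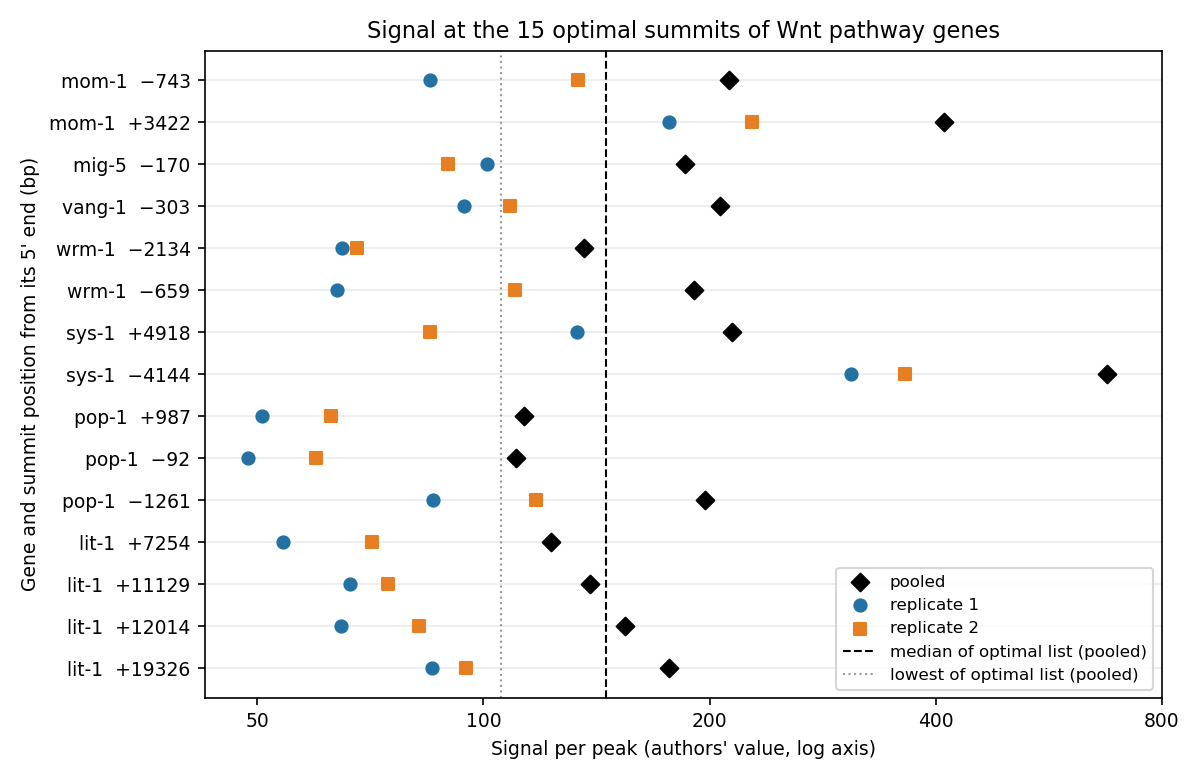
Signal per peak at the 15 optimal summits on a log axis, in replicate 1 (circles), replicate 2 (squares) and the pooled list (diamonds), with each gene and the summit's distance from its 5' end in bp. The sys-1 summit at 4144 bp upstream and the mom-1 summit in the intron stand above the rest in both replicates, and the other 13 span 48.6 to 133.0 in replicate 1 and 59.9 to 133.4 in replicate 2.

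Replicate 1 had the lower signal at 13 of the 15 summits, against 68.8% of all 2112 matched optimal summits. As log2 of replicate 1 over replicate 2, the median was -0.30 at the 15 summits (range -0.79 to 0.65) and -0.18 over all matched optimal summits, of which the central 80% lay between -0.71 and 0.34. The scaling between the lists is unknown here, so a difference in scaling and a difference between the samples cannot be told apart in this offset. The sys-1 downstream summit at 0.65 lay above that central range, and the wrm-1 summit 659 bp upstream at -0.79 lay below it. With the strongest instead of the nearest replicate summit, a choice made after the data were seen, the wrm-1 signal in replicate 1 was 89.4 instead of 63.8. With 1 library on each side, no test applies to these differences.

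**Figure D4:**
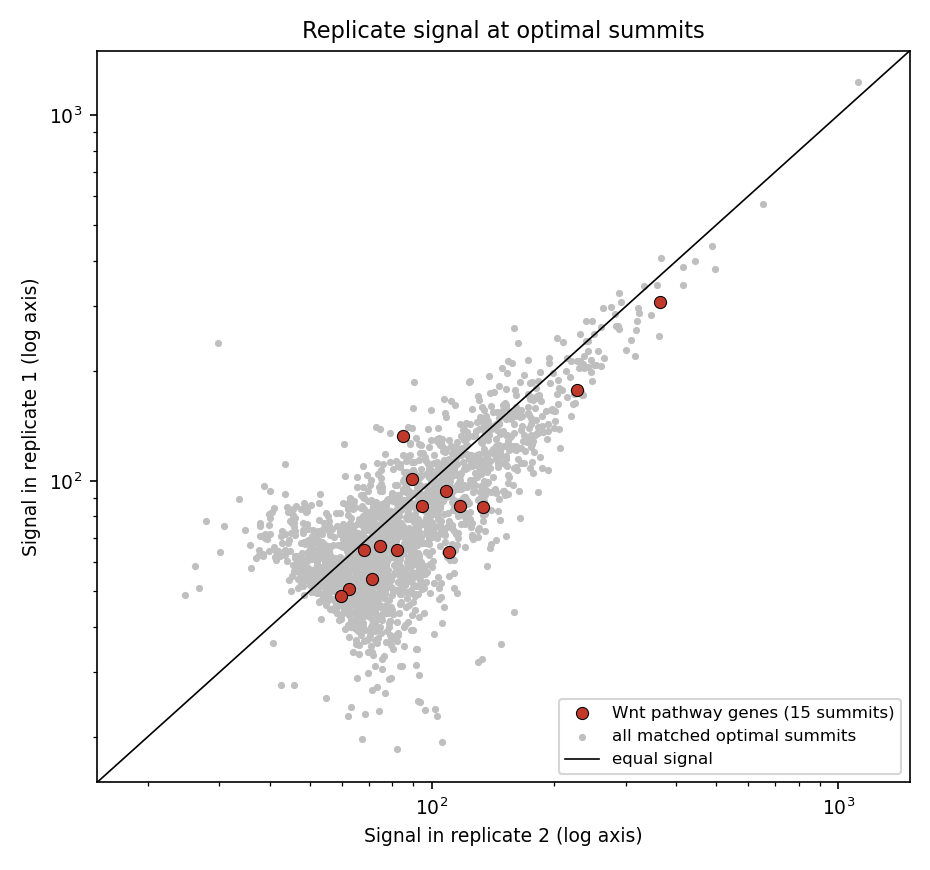
Signal in replicate 1 (y axis) against replicate 2 (x axis) at matched optimal summits, both on log axes, with the 15 summits of the Wnt pathway genes in red, all 2112 in grey and a line of equal signal. Of the red points 13 lie below the line, and the points above it are those of mig-5 and the sys-1 downstream summit.

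Noncoding genes lay near several of these sites. Of the 15 summits, 6 were within 200 bp of a noncoding gene, against 28.6% of all optimal summits, and 3 of these lay inside one. They belonged to mom-1, vang-1, wrm-1, pop-1 and lit-1. For 6 of the 10 genes at least 1 optimal summit was farther than 200 bp from every noncoding gene, against 13.1% of all protein-coding genes. The exception among the 7 genes with optimal summits was vang-1. At mom-1 it was the stronger summit, in the intron, that stood clear of noncoding genes. The part of these noncoding genes in the signal was not tested.

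Neighbouring protein-coding genes shared other sites. Of the 15 summits, 4 lay in a promoter window of another gene (lev-9, cct-1, eif-3.C, and his-67 with his-68 and alg-5), and 3 lay in the promoter windows of several genes, against 14.6% of all optimal summits. At 10 of the 15 summits the member itself had the nearest 5' end. For this count and for the count of 4, the share over all optimal summits was not computed. Neither count is therefore a result about these genes. Those 10 belonged to mig-5, vang-1, wrm-1, pop-1 and lit-1. For sys-1, whose window held the strongest of the 15, no optimal summit was nearest to its own 5' end, and for mom-1 neither was.

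Sequence around the summits was mixed. Over the summit and 100 bp on either side, the G and C content had a median of 49.8% for the 15 (range 36.3% to 63.7%) and of 47.3% for all optimal summits. The Zic-type core, CAGCAGG or CAGCGGG on either strand, was found at 1 of the 15 summits, that of wrm-1, and at 6.62% of all optimal summits. The TCF-type core, CTTTGAA or CTTTGAT, was found at 1, 94 bp from the sys-1 downstream summit, and at 4.13% of all. The B box, GTTCGANNC, was found at 1, the mom-1 upstream summit, and at 6.76% of all. Each match lay at a different summit, and a count of 1 in 15 is too small to set against those shares.

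Relaxed peaks give the wider picture. All 10 genes had a pooled relaxed summit in the locus window, but so did 81.1% of all protein-coding genes. The summits numbered 54 in replicate 1 and 74 in replicate 2. Per kb of window, the pooled summits ran from 0.122 at mom-2 to 0.995 at pop-1, with 0.974 at wrm-1 and 0.739 at lit-1. Of the 10 genes, pop-1, wrm-1 and lit-1 thus had the densest summits. They also did in replicate 1 (0.640 at pop-1, 0.779 at wrm-1 and 0.563 at lit-1, with 0.554 at vang-1 next) and in replicate 2 (0.924, 0.877 and 0.845, with 0.478 at mom-5 next). Other Wnt genes described below reached similar or higher values: cam-1 had 0.834 in the pooled list and cfz-2 had 0.853 in replicate 1. At cbp-1 the values were 0.768 pooled, 0.838 in replicate 1 and 0.908 in replicate 2. In replicate 1 cfz-2 and cbp-1 were above each of the 10 genes, and in replicate 2 cbp-1 was above wrm-1 and lit-1. In the pooled list cam-1, cfz-2 and cbp-1 were above lit-1, while pop-1 and wrm-1 stayed above them. Whether density follows the role of a gene was not tested.

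Another 28 genes of Wnt signalling, listed from textbook membership, were read in the same windows. Of these, 13 had an optimal summit in the locus window, 4 in the promoter window and 4 inside the gene, with 16 summits in all, to be read against 17.3%, 6.29% and 3.06% of all protein-coding genes. The windows of the first 10 genes held 0.121 optimal summits per kb, against 0.0487 per kb in the windows of these 28. The median gene length was 4676.5 bp for the 10 genes and 4458 bp for the 28. The 10 genes were proposed with earlier results of these data known. An effect of that choice and a difference within the pathway cannot be told apart, and the difference between the lists was not tested.

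In the promoter window of the other genes, the strongest summit was that of cbp-1, the CBP/p300 acetyltransferase that acts as a transcriptional coactivator, at 873 bp upstream. Its signal was 213.6 in replicate 1 (rank 47) and 246.5 in replicate 2 (rank 38), with a pooled signal of 452.9 (rank 42). The Groucho corepressor gene unc-37, whose product works with POP-1, had a summit 318 bp upstream with a signal of 76.6 in replicate 1 and 100.2 in replicate 2, with a pooled signal of 185.0. The retromer-associated sorting nexin gene snx-3, which acts in Wnt secretion, had 140.8 at 364 bp upstream, a site shared with rad-54.L. The Frizzled gene cfz-2 had 118.6 at 832 bp upstream.

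Inside the gene, the Frizzled gene lin-17 had pooled signals of 171.7 in an intron and 111.0 in a coding exon. The Ror receptor gene cam-1 had 163.4 in its first intron and 143.7 at 3170 bp upstream. The Prickle gene prkl-1, of planar polarity like vang-1, had 112.1 in an intron, inside or within 200 bp of 3 noncoding RNA genes. A second cbp-1 summit, in a coding exon, had 136.6.

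The remaining summits were distant or shared with a neighbour. The Dishevelled gene dsh-1 had 185.0 at 2678 bp upstream, inside the noncoding RNA gene C34F11.10, the Axin gene pry-1 had 113.2 at 2006 bp upstream, and plr-1, a ubiquitin ligase that lowers Wnt receptors at the cell surface, had 147.8 at 984 bp past its 3' end. For axl-1 (175.7), gsk-3 (284.5) and hmp-2 (266.7) the summit lay in the promoter window of another gene, namely sec-12, Y18D10A.4 and K05C4.7. The other 15 genes had none, among them the Wnt ligand genes cwn-1, cwn-2, egl-20 and lin-44, and sfrp-1, which encodes a secreted Frizzled-related protein, had no peak in its window in any of the lists. With 17.3% of all protein-coding genes having such a summit, its absence at a few genes is no result about them. The strongest pooled signals at mig-14 (104.3), apr-1 (102.8) and cwn-1 (102.0) were just below the lowest optimal signal.

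**Figure D5:**
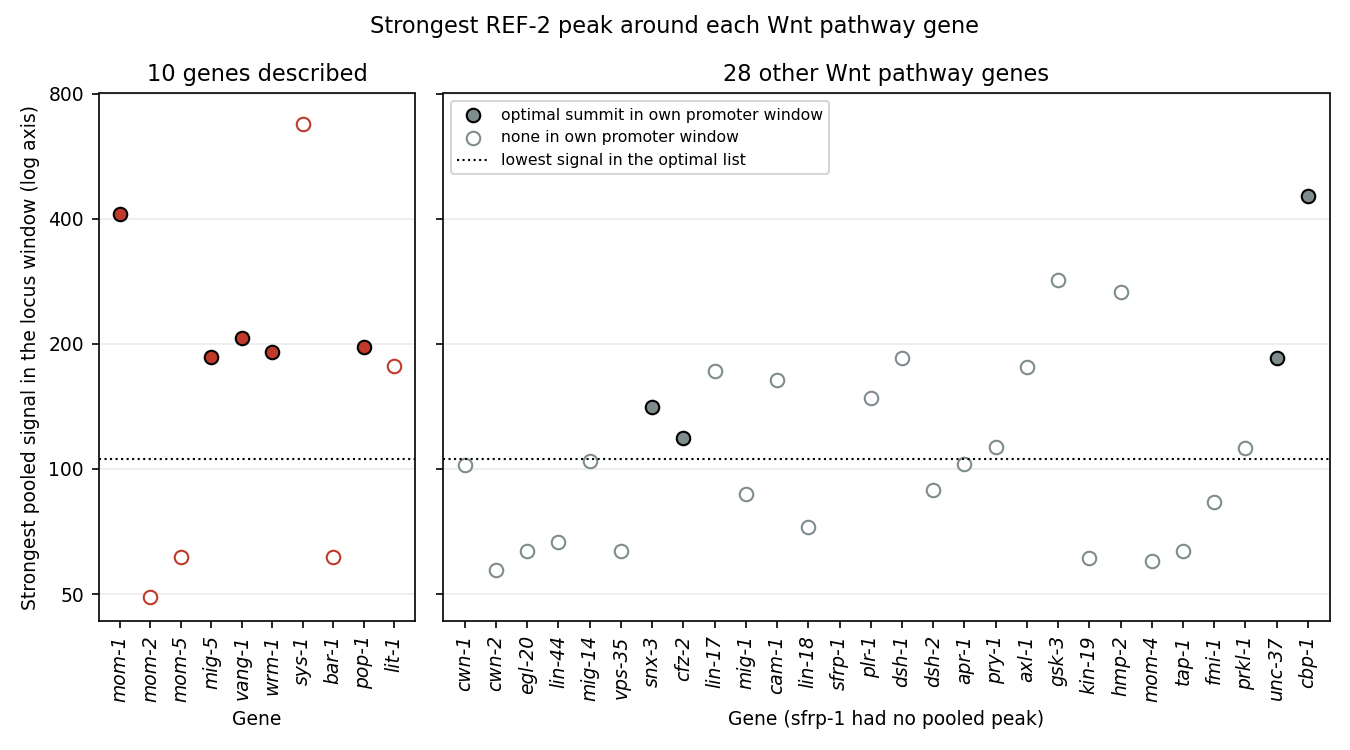
Strongest pooled signal in the locus window of each of the 10 genes (left, red) and of 28 other Wnt pathway genes (right, grey), on a log axis. Filled points have an optimal summit in the gene's own promoter window, 5 of 10 and 4 of 28, and the dotted line is the lowest optimal signal of 105.5.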

How the data were processed

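REF-2 binding was read from peak lists of 2 ChIP-seq libraries, replicates 1 and 2 of 1 group. The signal per peak is the authors' deposited value, and so is the −log10 q per peak, which the authors deposited beside it. Per the deposited file list, the optimal list derives from the pooled and replicate relaxed lists, and each relaxed list from alignments of its libraries and 1 further undescribed file. The aligner, the peak caller, their versions, any use of a control and the scaling between lists are not given in the sources used here. Lists on ce10 and control libraries were not used here. No counts of reads were used, so depth is unknown and no counting interval is given.

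Gene models came from Ensembl release 115 on WBcel235, and sequence and the name of the tRNA from RefSeq. Coordinates are 1-based. Summits were assigned to locus windows (5000 bp upstream to 1000 bp downstream), promoter windows (1000 bp before to 200 bp after the 5' end) and gene bodies. A summit in several windows counted for each gene. Each optimal summit was matched to the nearest summit within 200 bp in each replicate, and motifs were searched within 100 bp of summits. Ranks are within each list. The work used Python 3.11.15, pandas 2.3.3, numpy 2.4.6 and matplotlib 3.10.9, and the window and motif steps were tested on simulated data.

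The genes, the lists and the rule for naming were chosen with earlier results of these data known. Named were all 10 genes with every optimal summit in their window, or else their strongest pooled summit, noncoding genes within 200 bp, other genes whose promoter window held such a summit, and other pathway genes with an optimal summit. Other relaxed summits, and sfrp-1, mig-14, apr-1 and the ligand genes among those without an optimal summit, were named after their values were seen. No test was made across genes, since the genes were proposed with earlier results known. Also, 1 group allows no comparison between conditions. Alternatives left out each replicate (using the 2129 strongest peaks of the other), kept the stronger part of the optimal list, or changed windows, matching distances, transcript starts, noncoding classes and motif flanks.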

Additional observations from a re-analysis of the deposited data

How the results depend on the processing

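Of 43 recomputed counts, 38 stayed within 1.5 times the reported count and 5 moved. With promoter windows reaching 500 bp upstream, the genes with an optimal promoter summit numbered 3 in place of 5 (mom-1 and wrm-1 lie farther out) and the other Wnt genes 2 in place of 4. With peaks at or above the optimal median alone, the other Wnt genes numbered 2. The Zic-type core, counted where all its bases lay inside the window, was found at 0 summits within 50 bp and at 2 within 250 bp, in place of 1. The wrm-1 core, centred 49 bp from its summit, crosses the 50 bp edge. Each of these changes follows from the window or threshold itself. Leaving out a replicate gave 7 genes in the locus window and 5 in the promoter window either way, 2 to 3 in the gene body, 5 to 7 with a summit clear of noncoding genes, 1 summit with a Zic-type core, and 3 to 4 other Wnt genes in the promoter window. For peaks strong in both replicates, leaving out 1 gives no value. Among settings chosen after seeing the data, leaving out summits in another gene's promoter window gave 5 genes in the locus window, taking the nearest 5' end gave 5, and the pooled relaxed list gave 10. No paired analysis was possible because there is 1 group and no test. Unknown depth, unknown scaling of signal and the lack of an analysed control limit every value, and peaks of near-identical tRNA and histone genes are uncertain.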

Other observations

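Some summits at the Wnt pathway genes came in close pairs. In the pooled relaxed list, 8 of the 58 gaps between adjacent summits at these genes (13.8%) were 200 bp, to within 5 bp, and 6 of these pairs included an optimal summit. At mom-1 the pair in the intron was 202 bp apart, with signals of 410.9 and 90.6. At vang-1 the signals were 206.8 and 45.7 and at wrm-1 190.8 and 70.7, while lit-1 had 3 such pairs. In each of these 6 pairs the second signal was below the lowest optimal signal. Over the genome, 1054 of 29994 gaps between adjacent pooled summits (3.51%) fell in the same range and 646 in the next 11 bp. The 2 shares are not alike. The gaps at these genes lay inside the windows, which bounds their length, while the genome gaps include long ones. Summits were also denser in the windows, 0.551 against 0.299 per kb, so no conclusion is drawn from the difference. The smallest gap was 199 bp, so that range is the lower end of the gaps in this list. The weaker summits of such pairs entered the counts of relaxed summits per gene.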
